A study of Mus musculus with 145 samples.

Results

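The genes described here are 44 regulators of chromatin, chosen by name: enzymes that write or erase methyl and acetyl groups on histones, a deubiquitinase complex, nucleosome remodellers, corepressors and enzymes of DNA methylation. The H3K4 methyltransferase Kmt2c was left out of the set, which was chosen with earlier results of these data known. Of the 44 genes, 40 had a region among the 13391 gene regions of the authors' table, matched by Entrez identifier. Chd4, Kmt2b, Kdm6b and Bap1 had no region there and were not analysed here. Together the 40 regions held 365 kept insertion sites of 101078 in all, and 39 of the 40 genes were hit in at least 1 tumour. Kmt2d was hit in 0 of 145 tumours, where 1.72 were expected from its length. This count allows a share of up to 2.07% (3 tumours, counting error only). Under its own counting rules, the authors' table lists Kmt2d in 1 resistant and 1 untreated tumour.

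All tumours came from mice that carried 4 alleles: WAP-Cre, a Cre-dependent piggyBac transposase (LSL-PB), Cre-dependent PIK3CA with the activating H1047R change (LSL-PIK3CA) and the transposon ATP1. The WAP promoter drives Cre in mammary epithelium as pregnancy nears its end, and the transposase then moves ATP1 in the same cells that express mutant PIK3CA. The 94 untreated tumours came from 23 mice. By title, untreated 58 and 88 name the same gland of the same mouse, 88 with the suffix R2. Each was counted as a tumour, with 1 and 0 kept sites. The 51 resistant tumours, from 25 mice, received BYL719 (alpelisib, an inhibitor of PI3K alpha) at 30 mg/kg per day from a volume of 250 mm3 on, and were classed as resistant because they grew over at least 3 consecutive measurements within 3 weeks. Untreated tumours carried the same alleles and transposon, so every gene could be hit with and without the drug. Whether several tumours of a mouse arose independently is not stated, and tumours of a mouse are not independent samples.

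Chromatin regulators set how readily DNA wrapped in nucleosomes can be read. Trithorax-type enzymes and acetyltransferases mark active promoters and enhancers, Polycomb proteins mark silent ones, and remodellers of the SWI/SNF and CHD families slide or evict nucleosomes. Many of these genes are known as tumour suppressors in breast and other cancers, and a piggyBac transposon that lands in a gene can cut its transcript short or, from some positions, drive it.

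A gene was hit in a tumour if a site of at least 10 reads lay inside the gene's region. Where several tumours had reads at the same position and strand, the site was credited to the library with the highest number alone. piggyBac inserts at the bases TTAA. This was the motif at 349 of the 365 sites (95.6%), close to 96.3% of all kept sites. The most-read sites of the genes on which the results turn are printed below to show what an insertion is in these data: a position, a strand and the first 8 bases of the context that the site table gives, with the TTAA target in capitals. Positions are on mm10.
Asxl2 chromosome 12 position 3434226 minus strand: TTAAagaa
Asxl2 chromosome 12 position 3468348 plus strand: TTAAaaag
Setd5 chromosome 6 position 113130146 minus strand: TTAAcctt
Setd5 chromosome 6 position 113130818 minus strand: TTAAaaac
Kdm6a chromosome X position 18260219 minus strand: TTAAaaat
Kdm6a chromosome X position 18250754 plus strand: TTAAtggg
Chd2 chromosome 7 position 73481059 plus strand: TTAAggaa
Pbrm1 chromosome 14 position 31119184 minus strand: TTAAcaag
Ep300 chromosome 15 position 81591686 minus strand: TTAAgtgt
Arid2 chromosome 15 position 96344976 plus strand: TTAAagag

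TTAA was in a smaller share of the members' promoter windows than of all windows. Of 39 promoter windows of members in the RefSeq table of build GRCm38.p6 (31 genes, 250 bases before to 50 after a start), 12 held TTAA (30.8%), against 52.4% of all 32851 windows of the same length. The motif reads the same on both strands. Of the 365 sites 1 lay in such a window, that of Setdb1, an H3K9 methyltransferase. The windows of the 3 most recurrent genes and of Setdb1 are printed as the windows of the genes with the highest ratios and of the gene with an insertion there, each in the direction of transcription with TTAA in capitals. Asxl2 lies at chr12:3426607-3426906 on the plus strand with 0 TTAA, Setd5 at chr6:113104685-113104984 on the plus strand with 2, Kdm6a at chrX:18162325-18162624 on the plus strand with 2, and Setdb1 at chr3:95357153-95357452 on the minus strand with 1.
Asxl2: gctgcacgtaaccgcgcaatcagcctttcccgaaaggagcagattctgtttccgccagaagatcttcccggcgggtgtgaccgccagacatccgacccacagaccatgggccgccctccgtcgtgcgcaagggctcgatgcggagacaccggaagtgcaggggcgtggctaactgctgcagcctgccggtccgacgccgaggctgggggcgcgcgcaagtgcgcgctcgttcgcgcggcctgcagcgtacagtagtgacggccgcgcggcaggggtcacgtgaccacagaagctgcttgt
Setd5: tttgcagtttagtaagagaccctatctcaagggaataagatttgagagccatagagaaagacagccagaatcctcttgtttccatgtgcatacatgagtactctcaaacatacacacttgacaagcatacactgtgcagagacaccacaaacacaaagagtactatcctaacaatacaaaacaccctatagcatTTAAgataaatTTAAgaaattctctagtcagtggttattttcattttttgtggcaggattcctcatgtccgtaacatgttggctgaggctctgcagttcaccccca
Kdm6a: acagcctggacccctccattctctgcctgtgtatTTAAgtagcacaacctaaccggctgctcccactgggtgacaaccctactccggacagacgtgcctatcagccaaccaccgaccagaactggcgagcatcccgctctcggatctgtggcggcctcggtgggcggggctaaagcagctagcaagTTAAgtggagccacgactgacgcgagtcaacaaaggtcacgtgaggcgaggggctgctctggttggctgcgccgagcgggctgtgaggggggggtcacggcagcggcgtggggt
Setdb1: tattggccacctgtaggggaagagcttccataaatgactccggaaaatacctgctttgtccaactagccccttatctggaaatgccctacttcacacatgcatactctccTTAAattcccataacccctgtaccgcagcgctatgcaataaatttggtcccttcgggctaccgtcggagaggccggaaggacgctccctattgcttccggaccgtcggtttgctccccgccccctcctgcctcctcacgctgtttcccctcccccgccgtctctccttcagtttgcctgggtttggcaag
The Asxl2 window was 67% G and C and the Kdm6a window 63%, whereas the Setd5 window, at a RefSeq start inside the region, was 39.7% G and C. The Setdb1 site, at position 95357343 on the plus strand with context TTAAggag, had 245 reads in a resistant tumour and lay against the gene's orientation. A window without TTAA says only that these letters are not in it.

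Libraries differed in depth. Resistant libraries had a median of 136932 reads and 473 kept sites, and untreated libraries 48339 reads and 431 kept sites, with no kept site in 1 resistant and 2 untreated libraries. The labels' title forms split the groups further, and no form held both groups. Kept sites had medians of 730 in 61 untreated tumours of the form TgTum, 258 in 33 of the form tgTum, 637 in 35 resistant tumours of the form Tgtumor and 241.5 in 16 of the form Mouse. Drug treatment and title form therefore cannot be told apart.

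The first question was whether any chromatin regulator was hit in more tumours than its length and the number of sites per tumour give. The number expected for a gene was summed over tumours from the region's share of all gene-region length outside chromosome 10 and from the tumour's own number of genic sites. Chromosome 10 was left out as the chromosome with an excess of sites. Of the 40 regions, 38 lay outside chromosome 10; Tet1 and Dot1l lie on it and were not tested. Over all tumours, 3 of the 38 were recurrent at an adjusted p below 0.05 (exact Poisson-binomial test, Benjamini-Hochberg adjusted over 12557 gene regions): Asxl2, Setd5 and Kdm6a. Among all 12557 regions 0.693% were. In resistant tumours alone 2 of 38 were called, Asxl2 and Setd5 (background 0.247%), and in untreated tumours alone 1 of 38, Kdm6a (background 0.231%). At an unadjusted p below 0.05 the counts were 13 of 38 members over all tumours (7.1% of all regions), 6 of 38 in resistant (4.36%) and 10 of 38 in untreated tumours (5.54%).

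The members were hit somewhat more often than length gives across the set. They were chosen with earlier results of these data known. This and the member counts above therefore describe the chosen set and do not test chromatin regulators in general. Their median ratio of hit to expected tumours was 1.57, against 1.01 over all 12557 regions, and 28 of 38 were above 1 (73.7%, against 50.6% of all regions). Members were long, with a median of 97.3 kb against 36 kb, and across the 38 genes the ratio had a Spearman correlation of -0.13 with length, a description over genes that share the same libraries. The 40 members were hit in 103 tumours: 39 of 51 resistant (76.5%) and 64 of 94 untreated (68.1%). A resistant tumour had a mean of 2.59 ± 2.79 members hit (SD, n = 51) and an untreated tumour 2.06 ± 2.27 (SD, n = 94). The observed total was 1.67 times the expected in resistant and 1.58 times in untreated tumours. These counts and totals take all 40 members, with Tet1 and Dot1l on chromosome 10 (hit in 3 and 2 tumours).

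**Figure D1:**
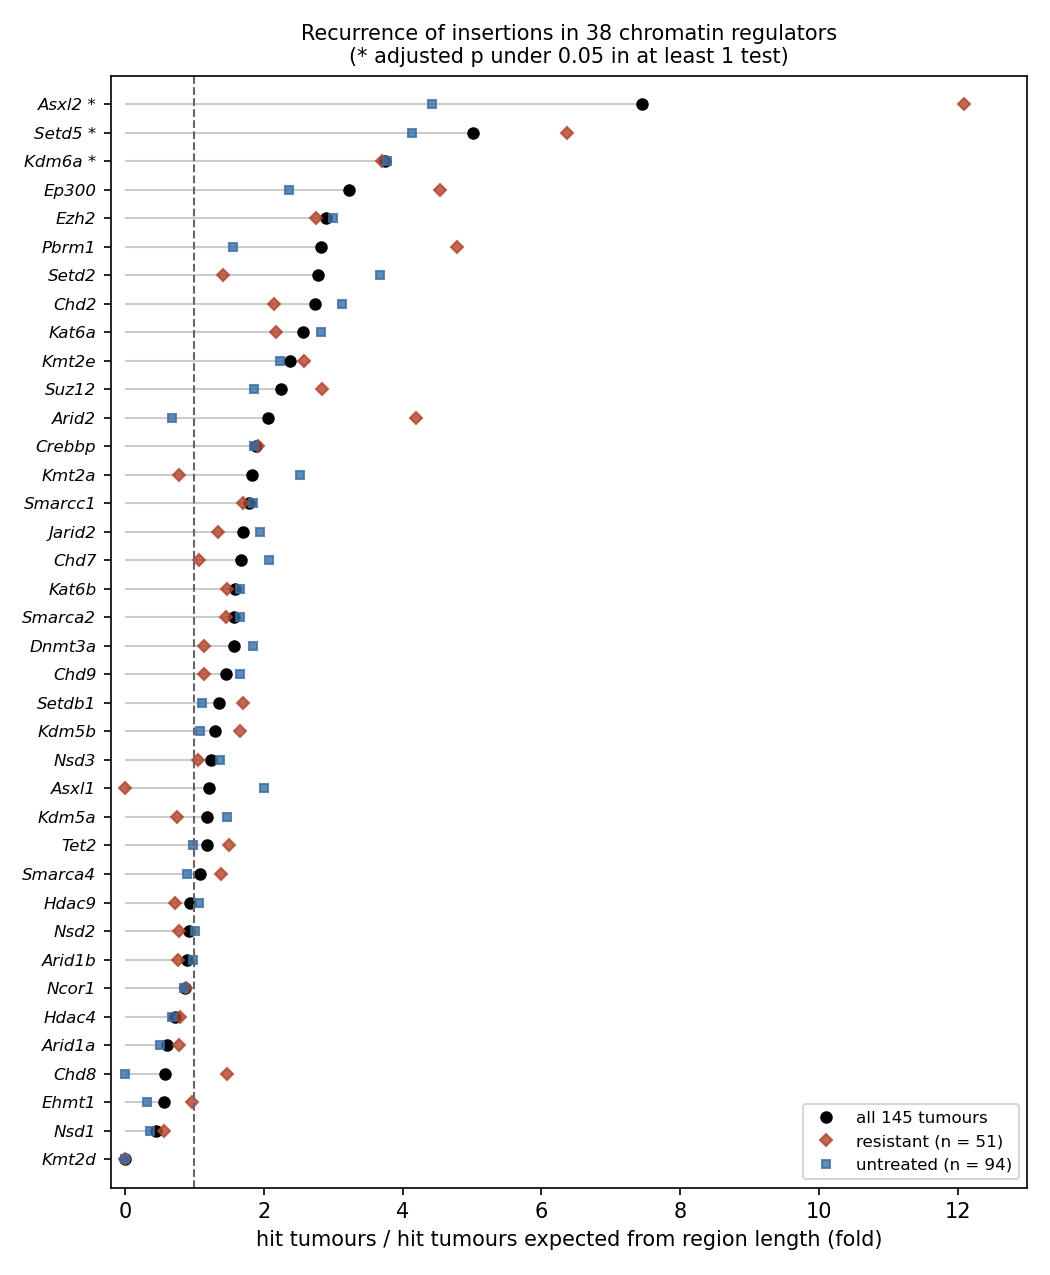
Ratio of hit tumours to hit tumours expected from region length (x axis, fold, linear) for the 38 members outside chromosome 10 (y axis, sorted), in all 145 tumours (black circles), 51 resistant (red diamonds) and 94 untreated tumours (blue squares); the dashed line marks a ratio of 1. Asxl2, Setd5 and Kdm6a, starred, stood at 7.45, 5.02 and 3.75 in all tumours, and the others ran from 0 (Kmt2d) to 3.23 (Ep300).

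**Figure D2:**
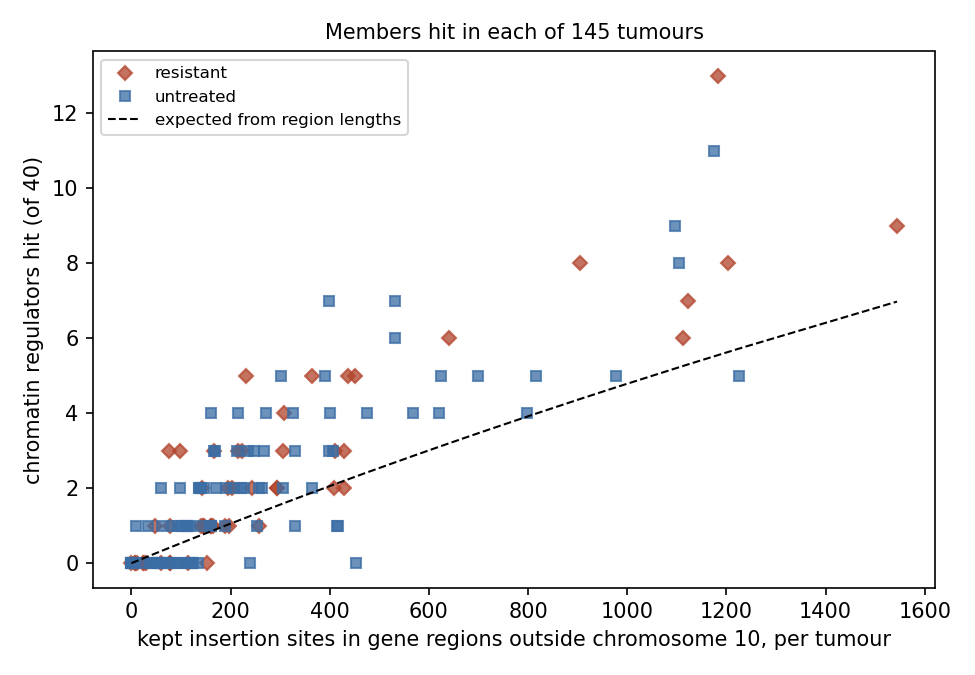
Members hit (y axis, of 40) against kept genic sites outside chromosome 10 (x axis) for each of 145 tumours, resistant in red and untreated in blue, with the number expected from region lengths as a dashed line. Tumours with many sites had the most members hit, up to 13 in a resistant and 11 in an untreated tumour. Above the line lay 35 resistant and 59 untreated tumours, and below it 15 resistant and 31 untreated tumours.

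The deubiquitinase complex PR-DUB, which removes ubiquitin from histone H2A, held the gene with the highest ratio. Asxl2 is the scaffold that, like Asxl1, binds the catalytic subunit Bap1 and is needed for its activity. The Asxl2 region, chr12:3424857-3506849 on the plus strand, is 82 kb long. Hits were found in 16 of 51 resistant tumours (31.4%, Clopper-Pearson 95% interval 19.1% to 45.9%), in 13 mice. Among untreated tumours 9 of 94 were hit (9.57%, 4.47% to 17.4%), in 7 mice. In the hit resistant tumours the most-read Asxl2 site had 14 reads at the lowest, 65.5 at the median and 749 at the highest. In the hit untreated tumours these values were 18, 57 and 260, so that read numbers overlapped between the groups.

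Hit tumours numbered 7.45 times the 3.36 expected over all tumours (adjusted p = 1.89e-12). In resistant tumours the ratio was 12.1 (adjusted p = 3.29e-11) and in untreated tumours 4.43 (adjusted p = 0.0589). Omission of any of 3 mice, which had no Asxl2 hit, brought the untreated value below the threshold. The call over all tumours and in resistant tumours held in each of the fits that left out a mouse, with ratios of 6.97 to 7.92 and 11.1 to 13.1. Asxl2 also stayed recurrent when the expectation came from the number of sites with 1 to 9 reads in a region instead of its length (3.11-fold, adjusted p = 1.91e-04). It was not recurrent among the 100 most-read sites of each tumour (2.28-fold, adjusted p = 1), and 1 of its 30 sites ranked within the first 100 of its tumour.

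Between groups, Asxl2 was hit in 21.8 percentage points more of the resistant tumours (odds ratio 4.27, 95% interval 1.60 to 12.1, two-sided Fisher exact p = 0.00215). This difference did not pass adjustment over 2558 gene regions hit in at least 5 tumours (adjusted p = 0.990), in which 0% of regions passed in either direction and 3.01% had an unadjusted p below 0.05. With labels permuted over mice, its unadjusted p was 0.00288, and with a mouse counted as hit once, 13 of 25 against 7 of 23 mice, the exact p was 0.154. With positions shared between tumours kept in every tumour, 14 regions passed and Asxl2 was among them (25.7 percentage points, adjusted p = 0.0498). By title form, the share with an Asxl2 hit was 31.4% (Tgtumor) and 31.3% (Mouse) within the resistant group. Within the untreated group it was 14.8% (TgTum) and 0% (tgTum, 0 of 33, which allows up to 9.09%). Resistant tumours with an Asxl2 hit had a median of 823 kept sites and those without 380, and in untreated tumours these medians were 2562 and 378. In a logistic fit with site number as a term, the log odds ratio of resistant against untreated tumours was 1.78 (likelihood-ratio test, unadjusted p = 5.27e-04, adjusted p = 0.225). The part of site number in the difference was not tested.

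Asxl2 sites gathered near the start of the gene and lay mostly against its orientation. Of 30 sites, 18 (60%) fell in the first 25% of the region in the direction of transcription, against 29.6% of 36689 sites in all stranded gene regions outside chromosome 10. The number against the gene's orientation was 22 of 30, and among the 18 early sites it was 14. The excess had an exact binomial p of 0.0161, which did not pass adjustment over 1896 regions (adjusted p = 1, with 0.158% of regions called and 3.11% below 0.05 unadjusted). In resistant tumours 14 of 21 sites were opposite and in untreated tumours 8 of 9, a difference with an exact Fisher p of 0.374. The most-read site, at position 3434226, also had 639 reads in other tumours, so its placing in a single tumour rests on the rule of most reads. A pair of insertions, at positions 3433767 and 3433772, lay at the same TTAA on opposite strands in an untreated and a resistant tumour. Asxl1, the related scaffold, was hit in 3 tumours, all untreated (1.22-fold).

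**Figure D3:**
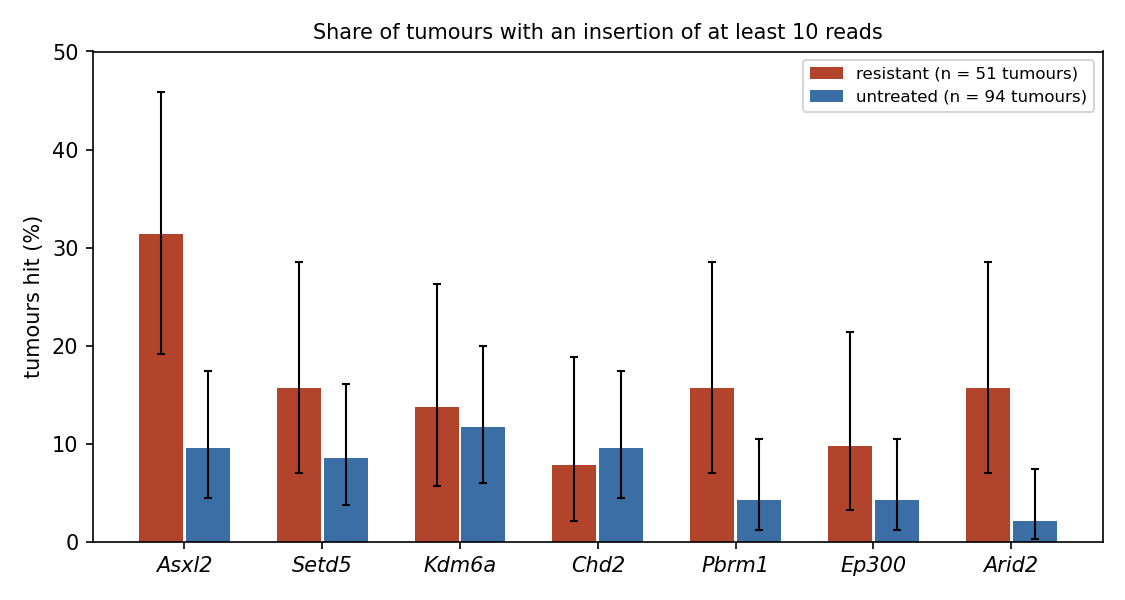
Share of tumours hit (y axis, percent, from 0) for the 7 genes described in detail, in resistant (red, n = 51) and untreated tumours (blue, n = 94), with Clopper-Pearson 95% intervals as error bars. The Asxl2 bars stand at 31.4% and 9.57% with intervals that do not overlap, and the intervals of the other 6 genes overlap. The intervals count tumours of a mouse as independent. With mice as units, Asxl2 was hit in 13 of 25 against 7 of 23 mice (Fisher exact p = 0.154).

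Setd5 was the second most recurrent member. It is a protein with a SET domain that associates with the NCoR and HDAC3 corepressor. Its region, chr6:113075639-113153424 on the plus strand, had hits in 8 of the resistant (15.7%, 7.02% to 28.6%) and 8 of the untreated tumours (8.51%, 3.75% to 16.1%), from 7 and 6 mice. Reads at the top site were 20, 23, 37, 59, 134, 170, 345 and 1088 in the resistant tumours and 12, 13, 17, 18, 30, 51, 148 and 340 in the untreated. These ranges overlapped, with medians of 96.5 and 24 reads. As a percent of the library's reads, the medians were 0.0815% and 0.0570%.

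Hit tumours in Setd5 were 5.02 times the expected over all tumours (adjusted p = 5.46e-05), 6.36 times in resistant (adjusted p = 0.0121) and 4.14 times in untreated tumours (adjusted p = 0.138). Without the mouse of resistant tumours 8, 9 and 10, or that of resistant tumours 15 and 16, the resistant call was lost (adjusted p = 0.145 and 0.0527). With the expectation from sites of 1 to 9 reads the ratio over all tumours fell to 1.80 (adjusted p = 0.283) and the resistant ratio to 2.29 (adjusted p = 0.558). The difference between groups was 7.18 percentage points (Fisher exact p = 0.266). All 8 resistant hits lay in the Tgtumor form (22.9% of 35) and 0 of 16 Mouse tumours were hit, which allows up to 18.8%. Of its 21 sites, 14 were opposite to the gene (exact p = 0.189) and 8 lay upstream of the RefSeq start used here. That start, in the window from 113104685 to 113104984, lies well inside the region, which begins at 113075639. These 8 sites therefore need not lie upstream of the gene.

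Kdm6a, the H3K27 demethylase UTX that also sits in the Kmt2c and Kmt2d complexes, was hit in 7 resistant (13.7%, 5.70% to 26.3%) and 11 untreated tumours (11.7%, 5.99% to 19.97%), from 6 and 7 mice. Its region, chrX:18160667-18279358 on the plus strand, is 119 kb long. The top site had 18 to 1177 reads in resistant tumours, with a median of 101, and 11 to 897 in untreated tumours, with a median of 55. As a percent of the library's reads the order of the medians was the other way, 0.0590% and 0.118%. The groups overlapped in reads and in share (difference 2.02 percentage points, Fisher exact p = 0.794).

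Kdm6a was hit in 3.75 times the expected tumours over all (adjusted p = 4.31e-04) and at similar ratios in each group, 3.70 in resistant (adjusted p = 0.293) and 3.78 in untreated tumours (adjusted p = 0.0491). The untreated call was lost without any of the 7 mice with a hit, and without 1 mouse that had none (untreated tumours 76 and 81), with adjusted p up to 0.212. Sites of 1 to 9 reads were as dense in Kdm6a as the kept ones, 20 beside 24, and with the expectation from them the ratio was 1.01 (adjusted p = 1). Dropping positions with reads in more than 1 tumour gave 3.14 (adjusted p = 0.0699). At the other end of the read scale, 6 of the 24 sites ranked within the first 100 of their tumour, and with only those sites counted the ratio was 9.46 (adjusted p = 0.0505). A Kdm6a site at position 18194630 on the minus strand, with 609 reads, ranked 2nd in its resistant tumour and made up 3.32% of that library's reads. Another, at 18200280 with 663 reads, ranked 19th in an untreated tumour. Sites were spread along the gene (5, 6, 6 and 7 in 4 equal stretches), with 14 in the gene's orientation and 10 against it.

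**Figure D4:**
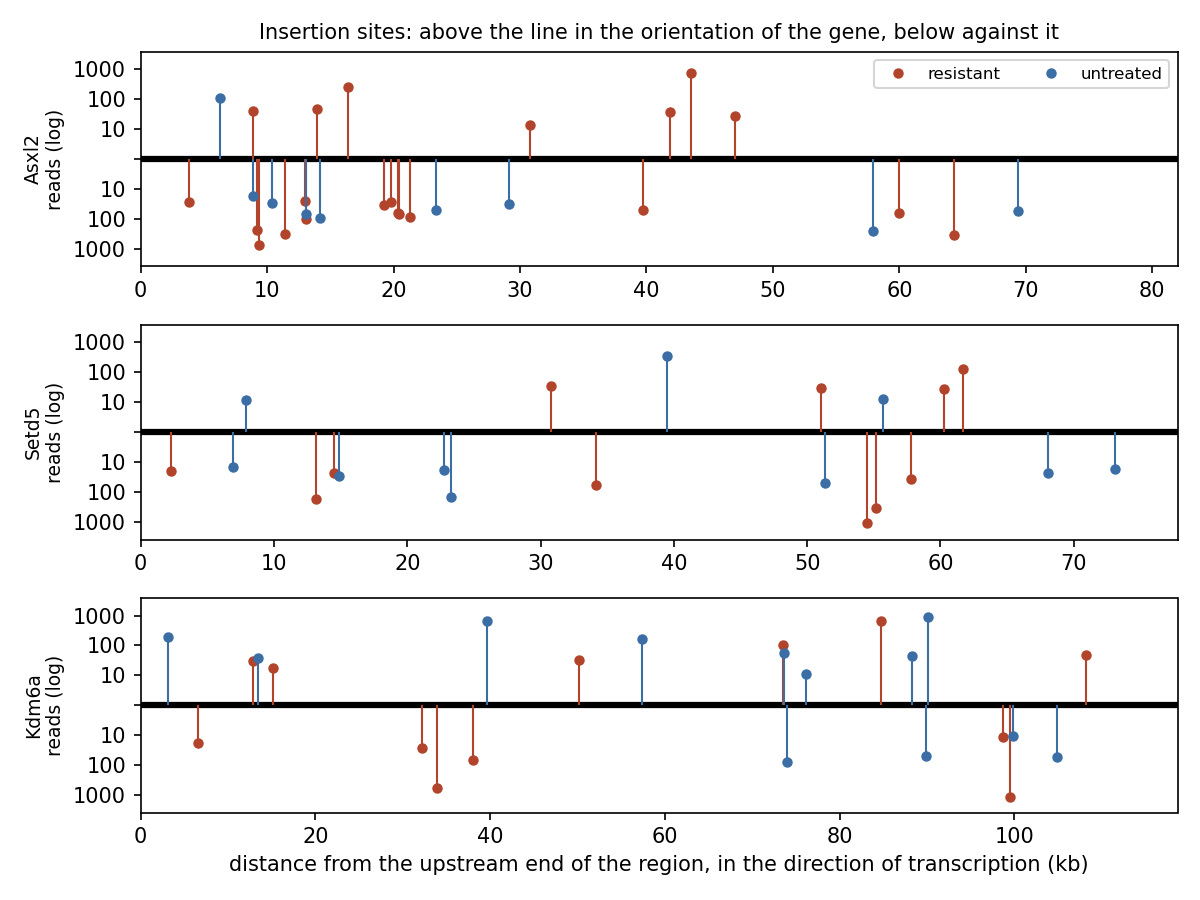
Kept insertion sites along Asxl2 (top), Setd5 (middle) and Kdm6a (bottom): distance from the upstream end of the region in kb (x axis) and reads on a log scale (y axis), above the line in the gene's orientation and below it against, resistant in red and untreated in blue. In Asxl2 18 of 30 sites lie in the first 25% and 22 lie below the line, while Kdm6a sites are spread over the region on both sides.

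Other demethylases were hit rarely. The H3K4 demethylases Kdm5a and Kdm5b were each hit in 4 tumours (1.18-fold and 1.31-fold). Among the H3K4 methyltransferases, Kmt2a was hit in 1 resistant and 5 untreated tumours (1.83-fold), Kmt2e in 3 and 4 (2.37-fold), and Kmt2d in none, with 0 sites of at least 10 reads in its 41.5 kb. A Kmt2e site with 785 reads ranked 7th in an untreated tumour. Of PRC2, the Polycomb complex that methylates H3K27, 3 subunits were among the members, each above expectation in number. The enzyme Ezh2 was hit in 8 tumours (2.90-fold), Suz12 in 4 (2.24-fold) and Jarid2 in 13 (1.70-fold). None of these passed adjustment. An Ezh2 site with 3240 reads, the 17th in an untreated tumour, was 0.988 kb upstream of the RefSeq start.

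The remaining SET-domain enzymes held no called gene besides Setd5. The H3K36 methyltransferase Setd2 was hit in 2 resistant and 8 untreated tumours (2.78-fold, adjusted p = 0.195). Its relatives Nsd1, Nsd2 and Nsd3 were hit in 2, 3 and 6 tumours, and Ehmt1, an H3K9 methyltransferase, in 3 tumours over 131 kb (0.569-fold). Dot1l, which methylates H3K79 and was grouped beside the SET-domain enzymes, was hit in 2 untreated tumours. It lies on chromosome 10 and was not tested for recurrence.

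Arid2 and Pbrm1 had the lowest unadjusted Fisher p of the members after Asxl2. Both are subunits of PBAF, a form of the SWI/SNF remodeller. They are set together here by that rank in these data, and PBAF as a complex was not tested. Arid2 (chr15:96285522-96405463) was hit in 8 of 51 resistant tumours (15.7%, 7.02% to 28.6%) of 8 mice, and in 2 of 94 untreated tumours (2.13%, 0.259% to 7.48%) of 2 mice. Its top site had 17 to 132 reads in resistant tumours and 23 and 95 reads in the untreated ones, which lie inside the resistant range. The odds ratio was 8.43 (1.59 to 84.7, Fisher exact p = 0.00374, adjusted p = 0.990), and the p with labels permuted over mice was 0.00114. Against length, the resistant ratio was 4.19 (adjusted p = 0.102) and the untreated ratio 0.679. With sites of at least 3 reads counted, Arid2 was recurrent in resistant tumours (4.89-fold, adjusted p = 0.00109) and over all tumours (2.84-fold, adjusted p = 0.00729). All 8 resistant hits were in the Tgtumor form (22.9%), and hit resistant tumours had a median of 1640 kept sites against 418 in the others. With mice as units, 8 of 25 against 2 of 23 were hit (exact p = 0.0753), and with the expectation from sites of 1 to 9 reads the resistant ratio was 1.67 (adjusted p = 0.959).

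Pbrm1 (chr14:31017138-31121592) had hits in 8 resistant tumours (15.7%) of 6 mice and in 4 untreated tumours (4.26%) of 4 mice. Top sites in the resistant tumours had 20 to 469 reads with a median of 37.5, and those in the untreated had 17, 24, 27 and 45 reads. The ranges overlapped. The odds ratio was 4.14 (1.04 to 19.9, Fisher exact p = 0.0256, adjusted p = 0.990). With mice as units, 6 of 25 against 4 of 23 were hit (exact p = 0.727). The resistant ratio to expectation, 4.78, stood close to the threshold (adjusted p = 0.0533) and passed it in 9 of the 25 fits that left out a mouse. Those 9 mice had no Pbrm1 hit, so their omission left the hit tumours unchanged and lowered the expected number. It also passed with the expectation from sites of 1 to 9 reads, of which Pbrm1 had 2 (8.22-fold, adjusted p = 0.00557). None of its 14 sites ranked within the first 100, so that the ratio among those sites was 0. Its sites held a pair at the same TTAA, at positions 31066332 and 31066337, on opposite strands in an untreated and a resistant tumour.

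Taking the 7 SWI/SNF subunits as a class, at least 1 was hit in 45.1% of resistant tumours (23) and 24.5% of untreated tumours (23). The observed total was 1.87 times the expected in resistant and 1.17 times in untreated tumours. The class holds Arid2 and Pbrm1, picked out above by their low Fisher p in these data, and its difference was not tested. Other classes went both ways, with shares of 31.4% and 11.7% for PR-DUB and 15.7% and 25.5% for the CHD remodellers. Arid2 and Pbrm1 held 16 of the 30 resistant hits, and the others had fewer. In resistant and untreated tumours, the ATPase Smarca2 had 4 and 7 hits and the ATPase Smarca4 2 and 2. The core subunit Smarcc1 had 3 and 5, Arid1b 4 and 8 over 355 kb (0.897-fold), and Arid1a 1 and 1. Resistant and untreated ratios to expectation were 1.46 and 1.65 for Smarca2, 1.70 and 1.84 for Smarcc1, and 0.767 and 0.979 for Arid1b. For Smarca4 the ratios were 1.38 and 0.897, and for Arid1a 0.776 and 0.505. The higher class share in resistant tumours therefore rests largely on Arid2 and Pbrm1. The Arid1a site in the untreated tumour ranked 3rd there, with 781 reads and 1.27% of the library, in a tumour with 308 kept sites. A Smarcc1 site with 40 reads ranked 15th in an untreated tumour that kept 24 sites.

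Acetyltransferases were all above expectation, and none was called at the minimum of 10 reads. Ep300, which acetylates H3K27 at enhancers, had hits in 5 resistant tumours (24, 26, 66, 74 and 103 reads) and 4 untreated tumours (16, 21, 420 and 1888 reads). Shares were 9.80% and 4.26% (Fisher exact p = 0.279) and the ratio over all tumours was 3.23 (adjusted p = 0.146). With sites of at least 3 reads counted, Ep300 was recurrent over all tumours (3.82-fold, adjusted p = 0.00351) and in resistant tumours (5.62-fold, adjusted p = 0.0235). With the expectation from sites of 1 to 9 reads the ratio over all tumours was 0.921. Its relative Crebbp was hit in 10 tumours (1.89-fold), Kat6a in 9 (2.57-fold) and Kat6b in 11 (1.58-fold). The deacetylases and corepressor had the lowest total, 0.883 times the expected: Hdac9 in 8 resistant and 19 untreated tumours over 872 kb (0.941-fold), Hdac4 in 7 tumours (0.721-fold) and Ncor1 in 5 (0.868-fold). Hdac9 was hit in more tumours than Asxl2 and yet no more often than its length gives.

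Among the CHD remodellers, Chd2 (chr7:73426652-73543746 on the minus strand) had hits in 4 resistant tumours (12, 27, 43 and 488 reads) and 9 untreated tumours (10 to 125 reads, median 45). Shares were 7.84% and 9.57%, with an odds ratio of 0.805 (0.172 to 3.08, Fisher exact p = 1). With mice as units, 3 of 25 against 8 of 23 were hit, a difference of -22.8 percentage points (exact p = 0.0885) where that over tumours was -1.73. The ratio over all tumours was 2.74 (adjusted p = 0.0853). It passed the threshold without the mouse of untreated tumours 20 to 23, which had no Chd2 hit (adjusted p = 0.0486). It also passed with the expectation from sites of 1 to 9 reads, of which Chd2 had 2 (5.27-fold, adjusted p = 6.49e-04). Positions 73481054 and 73481059, in separate resistant tumours, shared a TTAA on opposite strands. Chd7 was hit in 12 tumours (1.68-fold), Chd9 in 13 (1.46-fold) and Chd8 in 1. Of the genes of DNA methylation, the methyltransferase Dnmt3a was hit in 7 tumours (1.57-fold) and the demethylating dioxygenases Tet2 and Tet1 in 4 and 3.

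Over the whole set, 25 members were hit in enough tumours for the test between groups. Of these, 14 had a higher share in resistant and 11 in untreated tumours, so that 56% were higher in resistant tumours, beside 56.3% of the tested regions outside chromosome 10. Among the 25, 3 had an unadjusted p below 0.05, Asxl2, Arid2 and Pbrm1, all higher in resistant tumours. With mice as units none of the 3 was below 0.05 (exact p = 0.154, 0.0753 and 0.727). Over tumours and in that direction 2.35% of all 2558 regions had such a p. After adjustment 0 of 25 members passed, as did 0 of 2558 regions by the Fisher exact test and 0 by the logistic fit. Orientation was tested in 24 members, of which 14 had more sites against the gene and 10 more with it; 1 had an unadjusted p below 0.05, Asxl2. Between groups, orientation differed at that level in 0 of 24 members and 1.58% of all regions.

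Members' sites were ordinary in reads. Their median was 39 reads and 0.0438% of a library, against 40 reads and 0.0429% for all kept sites, and 12.3% ranked within the first 100 of their tumour, against 12.7% of kept genic sites outside chromosome 10. Of the 365, 6 ranked within the first 20, a count for which no share over all kept sites was computed. The pairs at a shared TTAA on opposite strands comprised 6 sites (1.64%), against 1.82% of 40181 genic sites.

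Asxl2, Setd5 and Kdm6a together were hit in 24 resistant and 23 untreated tumours. In the resistant group 18 tumours had 1 of them, 5 had 2 and 1 had all 3, and in the untreated group these counts were 19, 3 and 1. Under its own counting rules, which the sources used here do not give, the authors' deposited table lists Asxl2 insertions in 51.0% of resistant and 14.9% of untreated tumours, Setd5 in 23.5% and 11.7%, and Kdm6a in 31.4% and 27.7%. In the authors' deposited table the score of Asxl2, a signed −log10 p-value, is 11.5 in resistant and 2.74 in untreated tumours.

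A wider list of 159 other chromatin genes gives a view of the field around the members. Of these, 115 had a region and 109 lay outside chromosome 10. In the recurrence tests 3 of the 109 were called: the acetyltransferase Kat2b, hit in 8 tumours of each group (3.66-fold, adjusted p = 0.00197), the H3K4 demethylase Kdm1a, hit in 5 and 5 (4.47-fold, adjusted p = 0.0154), and Kmt2c, hit in 24 and 24 tumours (5.35-fold, adjusted p = 8.99e-22). The median ratio of the 109 was 1.20 and 13 had an unadjusted p below 0.05 over all tumours (11.9%). Over all 12557 regions and all tumours, 0.693% were called, the median ratio was 1.01 and 7.1% had such a p. The list, which holds Kmt2c, was chosen with earlier results of these data known.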

How the data were processed

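Sites were mapped by splinkerette PCR of genomic DNA from mammary tumours, per the labels' protocols. The submitters' processing notes name mm10 as the build; aligner and site caller are not given in the sources used here. Each of 198107 sites has, in the deposited site table, a read count per library, as whole counts that the authors did not scale. The authors' deposited gene table gives region bounds, insertion counts, the percent of tumours hit and a signed −log10 p-value score. These last values were only copied. Regions extend up to 2000 bp past RefSeq genes, and each holds at least 1 insertion, so genes without one are not in the background length. Exons and introns were not assigned, as no gene models were used.

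Sites of at least 10 reads were kept in the tumour with most reads (12 ties); read number was not scaled, so deeper libraries are favoured. Strands came from RefSeq (31 members) or, for 9, from which end of the region was extended, a rule that agreed for 100% of 7246 genes with both and that replaced a looser rule with less agreement. Sites of a tumour within 10 bp counted once for orientation, which needed at least 6 sites. Python 3.11.15, numpy 2.4.6, pandas 2.3.3 and scipy 1.17.1 were used, and the tests were checked on simulated data. Members, classes and lists were chosen with earlier results of these data known. Genes described in full were those called in a recurrence test, then those with the smallest recurrence p until 6, and the 4 with the smallest Fisher p. Groups came from the treatment labels and mice from titles, which name 48 mice where the labels state 53. PCR reads carried no molecular identifiers, and intervals cover counting of tumours only. Alternatives were the read minimum, the number of sites per tumour, shared positions, TTAA sites, mice as units or left out, title forms and the expected number.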

Additional observations from a re-analysis of the deposited data

How the results depend on the processing

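The counts of recurrent regions moved with the read rule. Over all tumours 87 regions were called, and 137 with at least 3 reads, 49 with at least 30, 17 with at least 100, 11 with the 100 and 26 with the 300 most-read sites of a tumour, 131 with the expectation from low-read sites and 167 adjusted over regions hit in at least 3 tumours. In resistant tumours 31 were called, and in the same order 19 (30 reads), 11 (100 reads), 6, 11 and 87, with 48 when shared positions were kept in every tumour and 19 with mice as units. In untreated tumours 29 were called, and 48 (3 reads), 15, 7, 2 (100 sites), 9 (300 sites), 45 (shared positions kept), 14 (shared positions dropped), 78 (low-read sites), 12 (mice) and 115 (3 tumours). Leaving out each mouse gave 80 to 96, 22 to 36 and 18 to 34 regions. The Fisher count of 0 stayed 0 without any mouse and became 14 with shared positions kept.

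Signs turned for weak values. The Kdm6a difference was -0.44 percentage points at 3 reads, -0.67 with shared positions dropped, -6.43 with mice as units, -2.67 against the TgTum form alone, and -1.29 to 3.73 without a mouse. The Chd2 difference was 0.897 at 100 reads and -5.32 to 0.234 without a mouse, with -22.8 for mice as units, and that of Ep300 -0.17 at 100 reads and with 100 sites. The untreated ratio of Arid2 was 1.55 at 3 reads and 2.49 with 100 sites, and its share of sites in the gene's orientation 52.2% at 3 reads. The untreated ratio of Pbrm1 was 0.616 at 30 reads and 0 at 100 reads. With 100 sites the ratio was 0 for Pbrm1 in all, resistant and untreated tumours, for Chd2 in resistant and for Asxl2 in untreated tumours, and the Pbrm1 difference was 0. With low-read sites the ratio was 0.921 for Ep300 in all and 0.672 in untreated tumours, and 0.812 for Arid2 in all. The cause was not tested.

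Some calls were gained or lost. Adjusted over regions hit in at least 3 tumours, Chd2, Pbrm1 and Ep300 passed over all tumours (adjusted p = 0.0280, 0.0331 and 0.0478), Kdm6a, Pbrm1 and Arid2 in resistant tumours (0.0389, 0.00658 and 0.0125) and Asxl2, Setd5 and Chd2 in untreated tumours (0.0123, 0.0288 and 0.0461). At 100 reads Setd5 was lost over all and in resistant tumours (0.0846 and 0.273), and with 300 sites in resistant tumours (0.0731). Leaving out a mouse, the TTAA restriction, the omission of the library with suffix R2 and single title forms in the recurrence tests were chosen after seeing the data. No paired analysis was possible because the replicate numbers only name tumours and no mouse held both groups. Of the 40 members, 15 were hit in too few tumours for the test between groups.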
